A study of Mus musculus with 6 samples.

Results

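Interferon-stimulated and nucleic acid sensing genes were followed across 6 mouse osteosarcomas. The 47 genes were a fixed list of interferon receptors, signal factors, sensors of foreign nucleic acid and type I and type II interferon targets. They were chosen by name, with earlier results of these data known. All 47 were found among the 56196 genes of the count table, and 46 were among the 15361 genes with enough counts to test. The gene left out was Tgtp1. RNA selected for polyadenylate tails was sequenced from 3 TKO tumours, which carried Osx1-Cre, Rb1lox/lox, p53lox/lox and also SKP2-/-, and 3 DKO tumours, with Osx1-Cre, Rb1lox/lox and p53lox/lox alone. Both groups therefore lacked Rb1 and p53 wherever Cre had acted, and only TKO tumours carried the Skp2 knockout. The Osx1 (Sp7) promoter, active in osteoblast precursors, drove Cre. Replicate 1 of each group came from a male and replicates 2 and 3 from females, and ages are not given in the labels. Nothing in the labels says whether the tumours of a group came from different mice, so the p-values cover only how these samples spread. The series set Skp2 knockout tumours against Skp2-intact ones, and the comparison here asks how the interferon genes stood in each.

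Interferons are secreted proteins that warn cells of infection. Type I interferons (alpha and beta) bind the receptor made of Ifnar1 and Ifnar2 and activate a complex that includes Stat2 and Irf9 and binds a DNA element called the interferon-stimulated response element (ISRE). Type II interferon (gamma) binds Ifngr1 and Ifngr2, and its signal acts through a DNA element called the gamma-activated site (GAS). Their target genes encode proteins that block viral entry, translation and replication, and many encode sensors of viral nucleic acid, so that the response feeds itself. The same genes are active in many tumours, in the tumour cells and in infiltrating leukocytes.

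The DNA elements that define the pathway could be read directly in front of these genes. RefSeq promoter sequences (GRCm38.p6, 250 bases before to 50 after each gene's start) were matched for 38 of the 47 genes. The ISRE core, searched on both strands as GAAA, any 2 bases and GAAA again with overlapping copies counted, was present for 21 of the 38 genes (55.3%), against 3.99% of all 27025 genes with a promoter entry (3.44% of 32851 promoters). The GAS, searched as TTCNNNGAA, which reads the same on both strands, was present for 14 of the 38 (36.8%), against 9.55% of all genes (8.30% of promoters). A match is a description of the letters and not evidence of binding. The 10 windows below, each a core with 10 bases on either side, belong to the genes that the expression results turn on and to typical targets. They are read 5′ to 3′ on the gene's strand, with the core in capitals. Cores that read TTTC, 2 bases and TTTC lie on the opposite strand.
Stat2, chr10:128270266-128270295, plus strand: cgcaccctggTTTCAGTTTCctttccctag
Ifitm2, chr7:140955988-140956017, minus strand: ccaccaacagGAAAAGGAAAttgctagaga
Ifitm3, chr7:141010706-141010735, minus strand: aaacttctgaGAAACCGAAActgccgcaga
Ddx58, chr4:40239804-40239833, minus strand: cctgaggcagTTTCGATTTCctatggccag
Ifit1, chr19:34640775-34640804, plus strand: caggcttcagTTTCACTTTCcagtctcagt
Ifit3, chr19:34583397-34583426, plus strand: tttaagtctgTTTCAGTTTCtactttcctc
Ifit3b, chr19:34607793-34607822, plus strand: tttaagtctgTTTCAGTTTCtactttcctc
Gbp2, chr3:142620594-142620623, plus strand: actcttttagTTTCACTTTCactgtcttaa
Gbp3, chr3:142559989-142560018, plus strand: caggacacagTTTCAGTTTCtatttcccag
Irgm1, chr11:48871425-48871454, minus strand: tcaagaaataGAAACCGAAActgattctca

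The windows of Ifit3 and Ifit3b, neighbouring copies on chromosome 19, were identical in all 30 bases. In all, 26 of the 32 cores began within 200 bases before the start of their gene. Isg15, which encodes a ubiquitin-like protein, had the densest match, with 3 overlapping cores. They make up the capitals in its whole 300-base promoter.
Isg15, chr4:156200769-156201068, minus strand: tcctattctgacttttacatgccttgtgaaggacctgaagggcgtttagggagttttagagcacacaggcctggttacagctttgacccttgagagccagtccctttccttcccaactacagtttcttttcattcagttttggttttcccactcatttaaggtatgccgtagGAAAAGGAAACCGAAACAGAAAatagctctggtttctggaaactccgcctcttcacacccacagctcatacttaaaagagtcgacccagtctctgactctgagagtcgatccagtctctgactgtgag

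The promoters of Irf8 and Oasl1 held no ISRE core in this window, and Mx1 had no entry. Irf8 and Irf1, both transcription factors of the interferon gamma response, held GAS elements, shown in capitals with 10 bases on either side.
Irf8, chr8:120736177-120736205, plus strand: caaaagtgatTTCTCGGAAagagagcgct
Irf8, chr8:120736195-120736223, plus strand: aagagagcgcTTCAGAGAAggcggatttg
Irf1, chr11:53769914-53769942, plus strand: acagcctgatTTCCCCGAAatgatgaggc

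Skp2, the targeted gene, had 0 counts in each of the 3 TKO tumours, against 20, 64 and 46 counts in DKO tumours, so the libraries matched their labels for Skp2. Rb1 had 91.7, 52.2 and 44.9 CPM in TKO tumours, against 21.3, 17.9 and 22.5 CPM in DKO tumours, and rose by the edgeR test (adjusted p = 0.0419). Trp53 had 8.46, 37.8 and 21.9 CPM in TKO tumours, against 6.87, 6.03 and 7.36 CPM in DKO tumours, also without overlap (edgeR adjusted p = 0.115). These counts cover whole genes and do not show whether the floxed exons were lost, so the Rb1 and p53 labels were not checked. Depth was 20002918 to 22488819 gene counts in TKO libraries and 17063231 to 21581482 in DKO libraries. Values below are counts-per-million (CPM) of the scaled library total. TKO replicate 1 stood apart: its log2 CPM correlated with those of TKO replicates 2 and 3 at 0.83 and 0.81, whereas these correlated with each other at 0.91. The tissue label was checked against 7 osteoblast lineage genes, all of which were present in TKO replicates 2 and 3. Runx2, an early factor of the lineage, had 58.4, 136.6 and 241 CPM in TKO tumours, against 97.1, 83.3 and 95.1 CPM in DKO tumours. Col1a1, the main bone collagen, had 209, 30231 and 26908 CPM in TKO replicates 1, 2 and 3, against 11757, 11220 and 9947 CPM in DKO tumours. Sp7 was at 0 CPM in TKO replicate 1, against 206 and 433 CPM in TKO replicates 2 and 3, and at 7.97, 0 and 0.416 CPM in DKO tumours. Ibsp, Alpl and Bglap, genes of mineralizing cells, were at 0, 0.0834 and 0.375 CPM in TKO replicate 1, while Dmp1, an osteocyte gene, had 16.4 CPM there. In DKO tumours Dmp1 was at 0 in all 3, Bglap was at most 0.237 CPM, Alpl was at 8.76, 0.766 and 18.05 CPM, and Ibsp was at 22.9, 0 and 0 CPM. TKO replicate 1 and the DKO tumours thus held Runx2 but little or none of most later markers, and Col1a1 was far lower in TKO replicate 1 than in the other 5.

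Markers of other cells also differed between the groups. The 12 leukocyte and macrophage markers summed to 971 to 2818 CPM in TKO tumours and 6.87 to 124.8 CPM in DKO tumours. Cd68, whose groups overlapped, gave most of the DKO sums, with 5.48, 121.9 and 90.8 CPM in DKO replicates 1, 2 and 3. By the edgeR test 11 of the 12 were higher in TKO tumours. All of these but Csf1r passed the count filter through TKO tumours alone. With 1 CPM required in at least 1 tumour of each group, 2 of the 12 could be tested and Csf1r was called, against 1.19% of all genes. The complement genes C1qa, C1qb and C1qc, which mark macrophages, were at 0 in every DKO library. The 7 endothelial markers summed to 159.8 to 799 CPM in TKO tumours and 8.89 to 10.5 CPM in DKO tumours. Of the 11 T and NK cell markers, 9 were at 0 in all DKO tumours, and the list summed to 2.79 to 28.2 CPM in TKO tumours and at most 0.119 CPM in DKO tumours. The 7 skeletal muscle markers summed to 364 to 9459 CPM in TKO tumours and 4.33 to 9.08 CPM in DKO tumours. All 7 were called higher, but most passed the count filter through TKO tumours alone. The 8 B and plasma cell markers summed to 120.2 to 349 CPM in TKO tumours and 0.237 to 0.548 CPM in DKO tumours, and the 5 erythroid markers to 88.8 to 1167 CPM in TKO tumours and 0.498 to 1.28 CPM in DKO tumours. Igha, Emcn, Hbb-bs and Hbb-bt, from the B and plasma cell, endothelial and erythroid lists, were also at 0 in every DKO library. The groups thus differed in genotype and in these markers together, and the 2 cannot be told apart here. In whole tumours, few or no cells of a type and less RNA per cell cannot be told apart from these sums. The part of these cells in the results below was not tested. Without 1 library, edgeR called 10 or 11 leukocyte markers when a TKO library was left out. It called 6 without DKO replicate 1, 1 without DKO replicate 2 and 0 without DKO replicate 3. Over all genes, the fits without DKO replicates 1, 2 and 3 called only 39, 2 and 0.

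**Figure D1:**
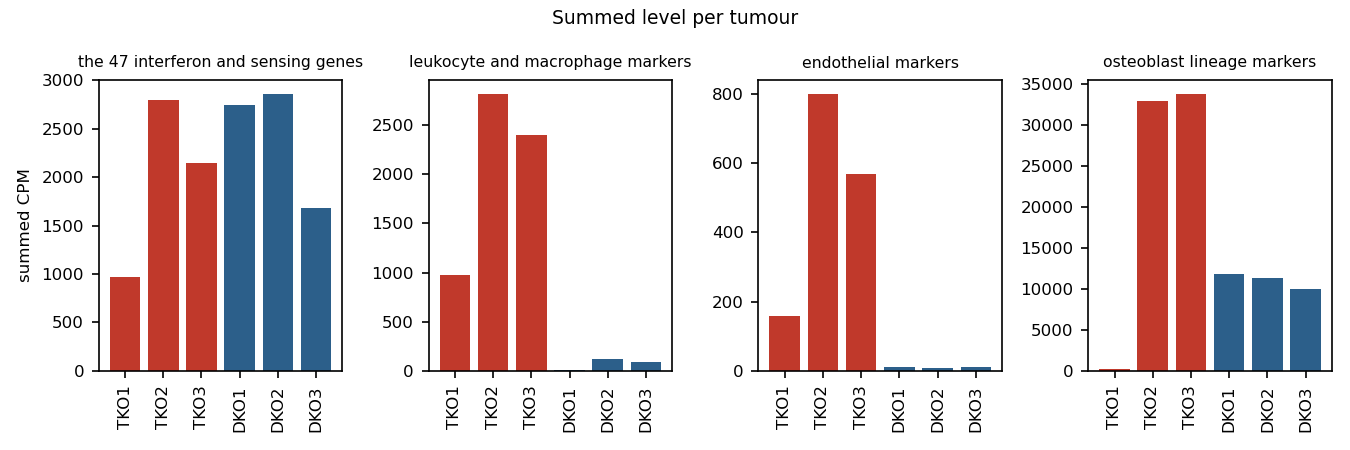
Summed CPM in each TKO (red) and DKO (blue) tumour of the 47 interferon and sensing genes and of leukocyte and macrophage, endothelial and osteoblast lineage markers, each panel with its own axis. The leukocyte and endothelial sums are higher in every TKO tumour, while the sums of the 47 genes overlap, with TKO replicate 1 lowest at 974 CPM.

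As a list, the interferon genes had no common direction between the genotypes. They summed to 974, 2800 and 2147 CPM in TKO replicates 1, 2 and 3, and to 2741, 2859 and 1682 CPM in DKO replicates 1, 2 and 3, so the groups overlapped. The log2 fold change (TKO over DKO) was above 0 for 23 genes and below 0 for 23, with a median of -0.01, against 0.09 over all genes tested. The middle 50% of the 46 genes lay between -0.49 and 0.48, against -0.52 and 0.76 over all genes. None of the 46 passed the edgeR quasi-likelihood test at an adjusted p of 0.05, whereas 7.36% of all genes tested did. At an unadjusted p under 0.05 there were 8 of the 46 (17.4%), against 25.0% of all genes, with 4 in each direction. DESeq2 called 5, with Irf8 and Mx1 higher and Stat2, Ifitm2 and Ifitm3 lower in TKO tumours, against 18.8% of all genes (11.6% higher and 7.22% lower). Limma-voom called Irf8 higher and Ifitm2 lower, against 7.32% of all genes (4.32% higher and 2.99% lower). Irf8 and Mx1 met the count filter in TKO tumours and not in DKO tumours.

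Behind the level median, a few single genes had groups that did not overlap. TKO and DKO values did not overlap for 6 of the 46 (13.0%), against 32.9% of all genes tested (17.3% higher and 15.6% lower in TKO tumours), so the share lay below that background. Irf8, Mx1 and Oasl1 were higher in every TKO tumour, and Stat2, Ifitm2 and Ifitm3 were lower in every TKO tumour. Fold changes spanned -2.24 for Ifi44 to 5.31 for Irf8 on the log2 scale. Without TKO replicate 1, edgeR called Irf8 and Tgtp1 higher and Stat2 and Ifitm2 lower, 4 of 47 tested, against 14.6% of all genes (9.61% higher and 4.94% lower).

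**Figure D2:**
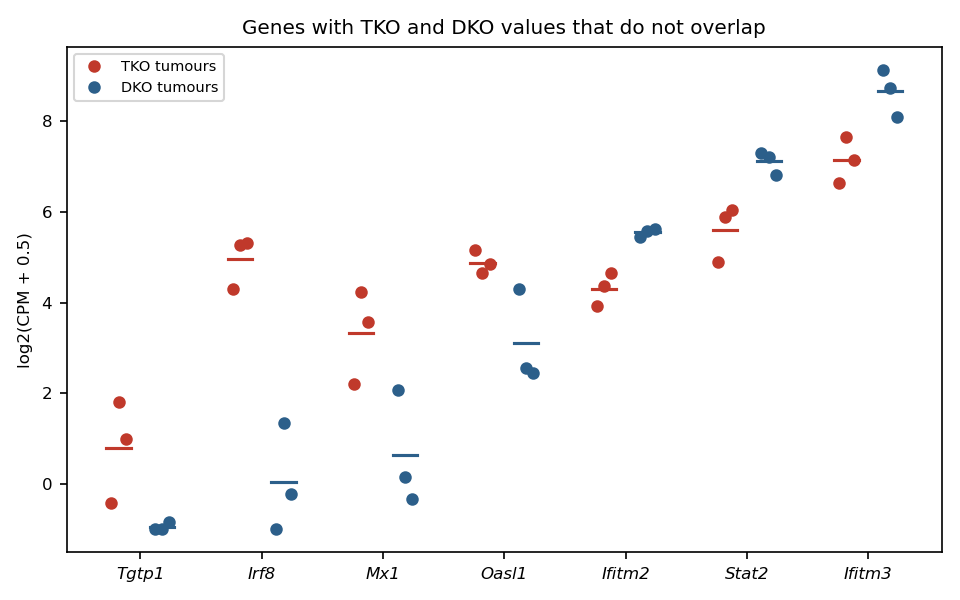
Level of the 7 genes whose TKO (red) and DKO (blue) values do not overlap, as log2(CPM + 0.5), with 1 point per tumour and a line at the group mean. Irf8 shows the widest gap, at 32.1 CPM on average in TKO tumours against 0.800 in DKO tumours, while Ifitm3, Stat2 and Ifitm2 lie lower in all TKO tumours.

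The 4 receptors were present in every tumour, and their levels overlapped between the groups. Ifngr1 (ENSMUSG00000020009, chr10:19591949-19610229), the ligand-binding chain of the interferon gamma receptor, had 83.2, 168 and 147 CPM in TKO tumours, against 96.6, 54.9 and 75.7 CPM in DKO tumours. TKO replicates 2 and 3 were above every DKO tumour and TKO replicate 1 was between them, for a log2 fold change of 0.81 (SE 0.36, edgeR adjusted p = 0.22). Ifngr2, the second chain, had 55.3, 138 and 111 CPM in TKO tumours, against 84.5, 86.8 and 101 CPM in DKO tumours, with TKO values on both sides of the DKO range. Ifnar1 averaged 120 ± 25.2 CPM in TKO tumours and 125 ± 6.53 CPM in DKO tumours (SD, n = 3 each). Ifnar2 averaged 42.5 ± 17.4 CPM in TKO tumours and 38.1 ± 0.520 CPM in DKO tumours (SD, n = 3 each). The DKO tumours were close together for Ifnar2, Ifnar1 and Ifngr2, while TKO tumours spread more widely.

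Among the signal factors, the one with the largest difference was Irf8 (ENSMUSG00000041515, chr8:120736358-120756694), a transcription factor needed for macrophages and other myeloid cells. Irf8 had 19.3, 38.2 and 38.9 CPM in TKO tumours, against 0, 2.04 and 0.356 CPM in DKO tumours. The lowest TKO tumour was well above the highest DKO tumour. TKO replicate 1 was the lowest TKO tumour, as it was for 44 of the 46 genes tested. The part of leukocytes in the Irf8 values was not tested. The log2 fold change was 5.31 (SE 1.33), which missed the threshold by edgeR (adjusted p = 0.0607). Its size rested on 0, 40 and 6 counts in DKO tumours and was 7.48 without DKO replicate 2, and 4.72 without DKO replicate 1. DESeq2 gave an adjusted p of 4.47e-05 and limma-voom 0.0280. Irf8 met the count filter in TKO tumours and not in DKO tumours. The edgeR adjusted p was 0.140 with no count filter and 0.0837 with the replicate number as a block. It was 0.0973 with 1 CPM required in at least 1 tumour of each group. It was 0.0445 with the first strand column, 0.0447 with sex in the model and 0.0387 without TKO replicate 1.

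Stat2 (ENSMUSG00000040033, chr10:128270559-128292849), a signal factor of the type I receptor, went the other way. It had 29.3, 58.6 and 65.1 CPM in TKO tumours, against 157.5, 146 and 112 CPM in DKO tumours. Every TKO tumour was below every DKO tumour, TKO replicate 1 furthest. The log2 fold change was -1.44 (SE 0.36, edgeR adjusted p = 0.0603, DESeq2 adjusted p = 0.00814). Without TKO replicate 1 it was -1.17 (edgeR adjusted p = 0.0334). Irf9, the DNA-binding member of that complex, averaged 37.8 ± 16.1 CPM in TKO tumours and 53.3 ± 15.1 CPM in DKO tumours (SD, n = 3 each). Its log2 fold change of -0.50 was smaller in size than that of Stat2, and neither passed the edgeR threshold.

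Irf7, the amplifier of type I interferon transcription, is given here after its values were seen. It had 15.7, 138 and 117 CPM in TKO tumours, against 48.1, 66.4 and 18.9 CPM in DKO tumours. TKO replicates 2 and 3 were above the whole DKO range and TKO replicate 1 was below it. Irf1, an early factor of the gamma response, averaged 41.0 ± 11.5 CPM in TKO tumours and 38.8 ± 14.8 CPM in DKO tumours (SD, n = 3 each).

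The 7 nucleic acid sensors had a median log2 fold change of -0.09, and none had separated groups. Ddx58 (ENSMUSG00000040296, chr4:40203773-40239828) encodes RIG-I, which detects viral RNA with uncapped ends. It had 30.3, 75.5 and 36.1 CPM in TKO tumours, against 144, 199.5 and 64.5 CPM in DKO tumours. The highest TKO tumour exceeded the lowest DKO tumour, and the other values did not cross, for a log2 fold change of -1.52 (SE 0.53, edgeR adjusted p = 0.136). Oas2, an oligoadenylate synthetase that signals double-stranded RNA to RNase L, had 3.08, 33.3 and 25.2 CPM in TKO tumours, against 33.2, 127 and 44.2 CPM in DKO tumours. TKO replicate 1 was far below all others, and TKO replicate 2 was level with the lowest DKO tumour (log2 fold change -1.73, SE 0.89, edgeR adjusted p = 0.278). The other RNA helicases differed less. Ifih1 (MDA5) averaged 50.5 ± 35.8 CPM in TKO tumours and 40.4 ± 11.6 CPM in DKO tumours, and Dhx58 (LGP2), their regulator, 18.9 ± 13.0 CPM in TKO tumours and 17.5 ± 5.72 CPM in DKO tumours (SD, n = 3 each). Zbp1, a sensor of Z-form nucleic acid linked to cell death, had log2 fold change -0.87, Oas1a -0.09 and Oas3 0.22.

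Among the 13 antiviral effectors the median log2 fold change was 0.38, and Mx1 and Oasl1 were the pair with separated groups. Mx1 (ENSMUSG00000000386, chr16:97447035-97462907), a GTPase that traps influenza nucleocapsids, had 4.08, 18.3 and 11.5 CPM in TKO tumours, against 3.68, 0.613 and 0.297 CPM in DKO tumours. The lowest TKO tumour was only slightly above the highest DKO tumour. The log2 fold change was 2.87 (SE 1.07, edgeR adjusted p = 0.157, DESeq2 adjusted p = 0.0208), and it was 4.60 without DKO replicate 1. Counts of Mx1 in DKO tumours were 74, 12 and 5, and it met the count filter in TKO tumours and not in DKO tumours. Mx2, its neighbour on chromosome 16, averaged 6.73 ± 3.53 CPM in TKO tumours and 7.72 ± 3.27 CPM in DKO tumours (SD, n = 3 each).

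Oasl1 (ENSMUSG00000041827, chr5:114923240-114937915), which in mice restrains translation of Irf7, had 35.0, 24.5 and 28.1 CPM in TKO tumours, against 19.0, 5.42 and 4.99 CPM in DKO tumours. TKO replicate 1 was the highest of all 6 tumours, and the groups did not overlap (log2 fold change 1.57, SE 0.59, edgeR adjusted p = 0.158, and 2.48 without DKO replicate 1). Its neighbour Oasl2 had the opposite order within TKO tumours, with 13.6, 90.5 and 70.5 CPM, against 113, 83.1 and 32.9 CPM in DKO tumours. Cmpk2, a mitochondrial nucleotide kinase gene beside Rsad2, had 11.2, 23.6 and 23.8 CPM in TKO tumours, against 11.5, 4.39 and 2.79 CPM in DKO tumours. TKO replicate 1 and DKO replicate 1 were nearly equal, and the other tumours were separated (log2 fold change 1.65, SE 0.63, edgeR adjusted p = 0.167). Rsad2, which encodes viperin, averaged 42.8 ± 22.6 CPM in TKO tumours and 29.8 ± 12.0 CPM in DKO tumours (SD, n = 3 each).

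Ifi44 had the lowest fold change of the list. It had 4.67, 30.2 and 12.9 CPM in TKO tumours, against 45.3, 161 and 18.8 CPM in DKO tumours. The groups overlapped, since DKO replicate 3 was below TKO replicate 2, and DKO tumours differed among themselves by 8.57-fold (log2 fold change -2.24, SE 0.95, edgeR adjusted p = 0.202). The IFIT genes encode proteins that bind viral RNA and block its translation. Their log2 fold changes were -0.41 for Ifit1, 0.38 for Ifit2, 0.51 for Ifit3 and 0.86 for Ifit3b, none past the threshold. Bst2 (tetherin, which holds budding virus at the membrane) and the RNA exonuclease gene Isg20 had -0.46 and -0.15.

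The 3 IFITM genes, which encode membrane proteins that block entry of enveloped viruses, lie together on chromosome 7 and did not move as a block. Ifitm3 (ENSMUSG00000025492, chr7:141009586-141010770) had 99.0, 199 and 140 CPM in TKO tumours, against 557, 425 and 273 CPM in DKO tumours. All TKO tumours were below all DKO tumours (log2 fold change -1.52, SE 0.40, edgeR adjusted p = 0.0672, DESeq2 adjusted p = 0.00792). Ifitm2 (ENSMUSG00000060591, chr7:140954837-140955987) had 14.6, 20.1 and 24.5 CPM in TKO tumours, against 43.1, 47.4 and 48.4 CPM in DKO tumours. The groups were tight and separate, and its adjusted p of 0.0542 by edgeR was the smallest of the list (log2 fold change -1.23, SE 0.30, DESeq2 adjusted p = 0.00356). Of the exon bases of Ifitm2, 40.9% are shared with the annotated gene Gm45717, so its reads are uncertain. Ifitm1, between them on the chromosome, had 0.542, 13.2 and 11.4 CPM in TKO tumours, against 0.498, 3.42 and 1.25 CPM in DKO tumours. TKO replicates 2 and 3 were above every DKO tumour and TKO replicate 1 was level with the lowest DKO tumour (log2 fold change 2.28, SE 1.20, edgeR adjusted p = 0.289).

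Per kilobase of exon, Ifitm3 had the highest level of the list in both groups, at 215 CPM per kb in TKO tumours and 617 CPM per kb in DKO tumours. Bst2 followed, at 124 CPM per kb in TKO tumours and 171 CPM per kb in DKO tumours, so the 2 most abundant transcripts were both membrane proteins that act on enveloped virus. Isg15 had rank 3 in TKO tumours, with 74.8 CPM per kb, and rank 4 in DKO tumours, with 65.8 CPM per kb. Irf8 had rank 39 in TKO tumours and rank 46 in DKO tumours, where it had 0.113 CPM per kb.

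**Figure D3:**
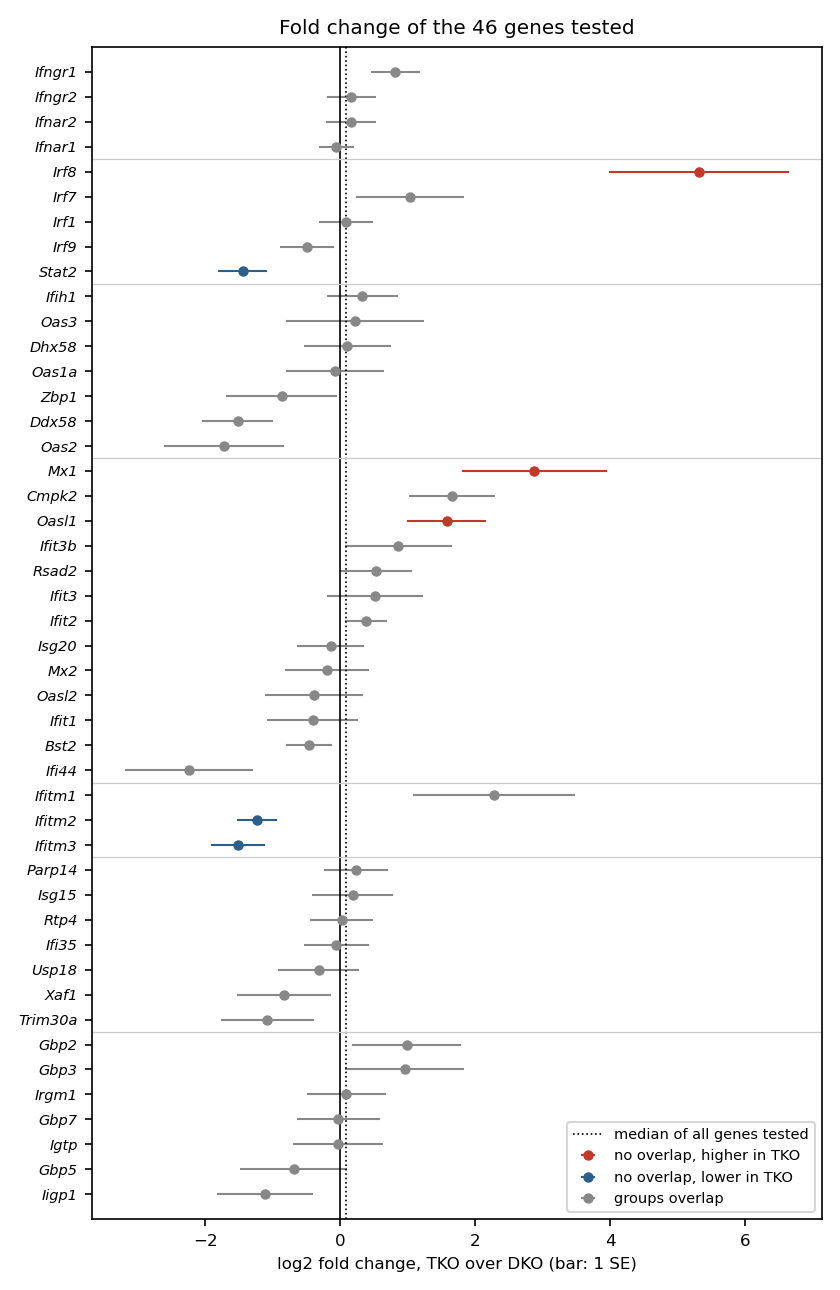
Log2 fold change (TKO over DKO) of the 46 genes tested, grouped by role in the order of the text, with bars of 1 SE and a dotted line at the median of all genes tested (0.09). Points scatter to both sides of 0, from -2.24 for Ifi44 to 5.31 for Irf8, and the coloured points mark the 6 genes whose groups do not overlap.

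The ISG15 system, in which Isg15 is attached to proteins and Usp18 removes it, gave a median log2 fold change of -0.06 over 7 genes, including regulators. Trim30a, a restraint on Toll-like receptor signalling, had 8.75, 49.2 and 42.6 CPM in TKO tumours, against 72.8, 106 and 34.1 CPM in DKO tumours. TKO replicate 1 was the lowest of the 6, and the others overlapped (log2 fold change -1.08, SE 0.69, edgeR adjusted p = 0.372). Xaf1, a partner of the apoptosis inhibitor XIAP, had 7.71, 44.2 and 15.6 CPM in TKO tumours, against 31.6, 64.9 and 24.1 CPM in DKO tumours. TKO replicate 2 lay within the DKO range and the other TKO tumours below it (log2 fold change -0.84, SE 0.69, edgeR adjusted p = 0.494). Isg15, given after its values were seen, had 22.3, 70.5 and 76.8 CPM in TKO tumours, against 64.9, 64.0 and 20.4 CPM in DKO tumours. The lowest tumour of each group, TKO replicate 1 and DKO replicate 3, stood well under the rest, and the log2 fold change was 0.18. Usp18, Ifi35, Rtp4 and Parp14 (a mono-ADP-ribosyltransferase) had log2 fold changes between -0.33 and 0.23.

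The interferon-induced GTPases attack the vacuoles of intracellular parasites and bacteria, and 7 of the 8 could be tested, with a median log2 fold change of -0.03. Gbp2 (ENSMUSG00000028270, chr3:142620602-142638008) had 12.1, 138 and 32.2 CPM in TKO tumours, against 34.3, 34.3 and 23.6 CPM in DKO tumours. TKO replicate 2 was far above all others, and TKO replicate 1 was lowest (log2 fold change 0.98, SE 0.81, edgeR adjusted p = 0.491). Gbp3, its neighbour, had the same shape, with 12.8, 184 and 45.4 CPM in TKO tumours, against 37.9, 61.6 and 26.0 CPM in DKO tumours. Iigp1, an immunity-related GTPase, had 4.83, 30.8 and 32.0 CPM in TKO tumours, against 73.0, 44.8 and 28.5 CPM in DKO tumours. TKO replicates 2 and 3 were just above the lowest DKO tumour (log2 fold change -1.11, SE 0.71, edgeR adjusted p = 0.375). Gbp5, Gbp7, Igtp and Irgm1 had log2 fold changes of -0.69, -0.03, -0.04 and 0.08.

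Tgtp1, the GTPase with too few counts for the test, had 6, 62 and 29 counts in TKO tumours, against 0, 0 and 1 count in DKO tumours. Every TKO tumour was above every DKO tumour. The depth-scaled ratio over each group's total was 85.2, with an exact 95% counting interval of 14.9 to 3398, which does not cover the spread between tumours. With no filter on counts, edgeR gave an adjusted p of 0.0339. Tgtp1 has a close copy, Tgtp2, as Ifit3 has Ifit3b, and reads that map to several places were not assigned to genes, so the counts of these genes are uncertain.

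**Figure D4:**
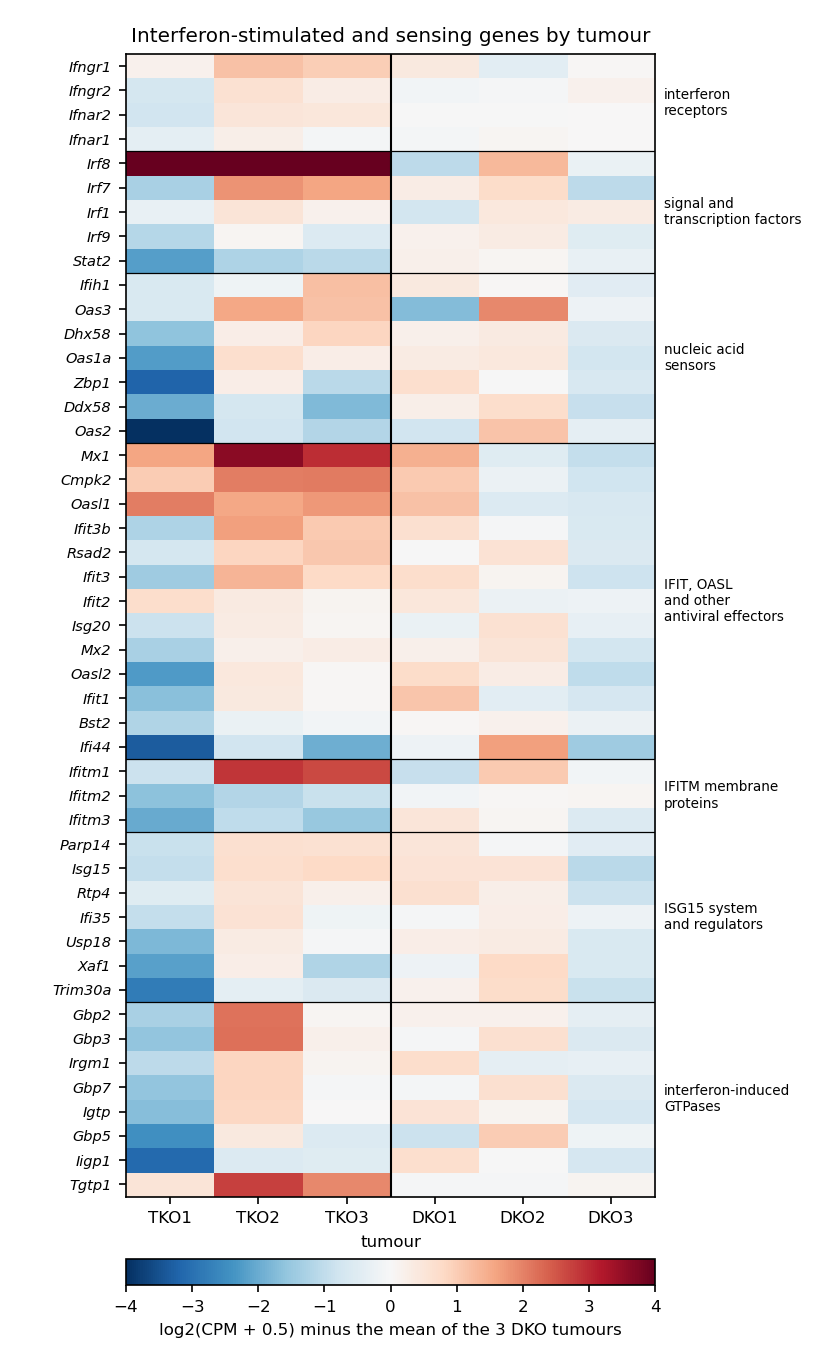
Level of each of the 47 genes in each TKO (left) and DKO (right) tumour, as log2(CPM + 0.5) minus the mean of the 3 DKO tumours, grouped by role (Irf8 in TKO tumours lies past the end of the colour scale). The column of TKO replicate 1 is blue for most genes, TKO replicate 2 is red for most, and Irf8 is at the red end in all 3 TKO tumours.

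Tumours of 1 genotype differed widely across the list. TKO replicate 1 was the lowest TKO tumour for 44 of 46 genes (95.7%), against 43.1% of all genes tested, and Ifit2 and Oasl1 were the exceptions, both highest there. TKO replicate 2 was the highest for 33 (71.7%), against 32.3% of all genes. The mean of TKO replicates 2 and 3 was a median of 3.29 times that of replicate 1 over the list, and 1.09 times over all genes. The ratio reached 22.7 for Ifitm1, 9.49 for Oas2 and 8.15 for Irf7, and it was 1.39 for Ifnar1.

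A smaller gradient of the same kind was present in DKO tumours. DKO replicate 3 was the lowest DKO tumour for 33 of 46 genes (71.7%), against 28.4% of all genes. Highest to lowest value within a group differed by a median of 3.79-fold in TKO tumours and 2.37-fold in DKO tumours, against 2.24-fold and 1.65-fold over all genes. Set against the DKO range, TKO replicate 1 was below all DKO tumours for 35 of 46 genes (76.1%), against 36.3% of all genes. TKO replicate 2 was above all DKO tumours for 23 (50.0%), against 36.8% of all genes. TKO replicate 3 was above them for 16 (34.8%), against 37.0% of all genes. The median log2 distance from the DKO mean was -1.23, 0.51 and 0.12 in TKO replicates 1, 2 and 3. Leaving out TKO replicate 1 moved the list's median log2 fold change to 0.39 (0.04 over all genes), and leaving out TKO replicate 2 moved it to -0.43 (0.08 over all genes). The direction of the list thus rested on which TKO tumour was counted. The order within TKO tumours matched that of the leukocyte marker sums (971, 2818 and 2398 CPM in TKO replicates 1, 2 and 3). Endothelial (160, 799 and 567 CPM), skeletal muscle (364, 9459 and 1558 CPM), T and NK cell (2.79, 28.2 and 18.4 CPM), B and plasma cell (120, 349 and 200 CPM) and neutrophil sums (14.7, 50.6 and 18.7 CPM) had the same order. Erythroid sums had the reverse order (1167, 88.8 and 459 CPM). Osteoblast lineage (284, 32981 and 33837 CPM) and plasmacytoid dendritic cell sums (0.542, 6.90 and 8.11 CPM) were highest in TKO replicate 3. The part of none of these cells was tested. DKO replicates 1, 2 and 3 held 2741, 2859 and 1682 CPM of the list at leukocyte sums of 6.87, 124.8 and 92.4 CPM. Cd68 gave 5.48, 121.9 and 90.8 CPM of those sums, so their order was that of 1 gene.

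Interferon RNA itself was almost undetected. The 21 interferon genes examined, from Ifna and Ifnb1 to Ifng and the lambda genes, gave 15 counts in all TKO libraries and 8 in all DKO libraries. No library had more than 6 counts of any one gene, 14 of the 21 were at 0 in all 6, and none could be tested. Ifnb1 had 0, 2 and 3 counts in TKO tumours and 0 in each DKO tumour, and Ifng had 0 in all 6. A count of 0 allows up to 3 counts, which is 0.133 to 0.176 CPM at these depths.

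Of 118 other genes of the pathway, 88 were testable, and 5 of them (5.68%) passed the edgeR test, 4 higher and 1 lower in TKO tumours, against 4.89% and 2.47% of all genes tested. The 4 higher were Tlr8, Tlr9, Irf5 and Epsti1. Tlr8 and Tlr9 encode endosomal receptors for RNA and DNA, and both passed the count filter through TKO tumours alone. Tlr8 had 138, 262 and 184 counts in TKO tumours, against 0 in every DKO tumour, at least 171-fold higher with the floor of 3 counts taken over the whole group (edgeR adjusted p = 0.0156). Tlr9 had 47, 208 and 214 counts in TKO tumours, against 0 in every DKO tumour, at least 137-fold higher by the same floor (edgeR adjusted p = 0.0290). The leukocyte marker sums given above were also lower in every DKO tumour, and their part in this was not tested.

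Irf5, a factor downstream of those receptors, had 18.8, 39.8 and 27.8 CPM in TKO tumours, against 1.49, 5.57 and 5.64 CPM in DKO tumours, without overlap (log2 fold change 2.77, SE 0.61, edgeR adjusted p = 0.0434). Epsti1 had 9.38, 10.1 and 16.0 CPM in TKO tumours, against 0.149, 1.12 and 0.594 CPM in DKO tumours (log2 fold change 4.24, SE 0.81, edgeR adjusted p = 0.0308). With 0.149 CPM in DKO replicate 1, Epsti1 met the count filter in TKO tumours and not in DKO tumours. The gene that fell was Gbp6, a paralogue of Gbp2, with 1.54, 5.93 and 5.56 CPM in TKO tumours, against 57.8, 43.0 and 15.2 CPM in DKO tumours (log2 fold change -3.15, SE 0.71, edgeR adjusted p = 0.0459). Its exons partly overlap those of another annotated gene, Gm43302, so its reads are uncertain. These 5 calls depended on the libraries: edgeR called none of them when any DKO replicate was left out (smallest adjusted p = 0.0604), and Tlr8 alone without TKO replicate 2 or 3. With 1 CPM required in at least 1 tumour of each group, Tlr8 and Tlr9, at 0 in DKO tumours, could not be tested. None of the 82 pathway genes tested was called by edgeR (smallest adjusted p = 0.0620), against 1.19% of all genes. Gbp6 was not called by limma-voom, with sex in the model or with the first strand column, and Irf5 and Epsti1 were not called with that column. Irf5 was not called with the other strand column either. Without TKO replicate 1, edgeR called 10 higher and 3 lower of 91, all 5 among them, against 14.6% of all genes (9.61% higher and 4.94% lower). DESeq2 on all libraries called 9 higher and 4 lower of 88, against 18.8% of all genes (11.6% higher and 7.22% lower). Gbp6 was separated between the groups, whereas Gbp2, Gbp3, Gbp5 and Gbp7 overlapped.

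None of 12 genes of JAK-STAT signalling and feedback passed the edgeR test, with 3 (25%) at an unadjusted p under 0.05, a share equal to that of all genes, and neither DESeq2 nor limma-voom called any. Without TKO replicate 1, edgeR called Jak1 and Ptpn2 lower, in a fit that called 14.6% of all genes (4.94% lower). The smallest p-values were those of Jak1, the kinase shared by the receptors, and Ptpn2, a phosphatase that restrains it. Jak1 averaged 191 ± 60.6 CPM in TKO tumours and 382 ± 78.1 CPM in DKO tumours (SD, n = 3 each; edgeR adjusted p = 0.128). Ptpn2 averaged 43.4 ± 15.3 CPM in TKO tumours and 75.5 ± 14.3 CPM in DKO tumours (SD, n = 3 each; edgeR adjusted p = 0.191). Of 13 testable interferon gamma targets outside the list, none passed by edgeR, with 4 (30.8%) at an unadjusted p under 0.05, against 25.0% of all genes. DESeq2 called Ciita and B2m, 2 of 13, against 18.8% of all genes, and limma-voom called B2m. B2m, the light chain of MHC class I, averaged 1205 ± 266 CPM in TKO tumours and 3299 ± 737 CPM in DKO tumours (SD, n = 3 each; edgeR adjusted p = 0.0681). Ciita, the activator of MHC class II genes, averaged 6.16 ± 3.50 CPM in TKO tumours and 0.289 ± 0.401 CPM in DKO tumours (SD, n = 3 each; edgeR adjusted p = 0.101). These 4 genes, taken for the smallest p-values of their lists, had separated groups, with Jak1, Ptpn2 and B2m lower and Ciita higher in every TKO tumour. Over the lists, groups were separated for 2 of 12 and 3 of 13 genes, against 32.9% of all genes. Among 25 testable sensing adaptors and nucleases, 15 (60%) were separated, 7 higher and 8 lower in TKO tumours. At an unadjusted p under 0.05 there were 13 (52%), against 25.0% of all genes. EdgeR called 3 of the 25 (12%), Tlr8, Tlr9 and Irf5, against 7.36% of all genes. Of 38 testable paralogues and other interferon-stimulated genes, 6 (15.8%) were separated and 2 (5.26%) called.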

How the data were processed

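Per the labels' protocols, RNA from about 100 mg of fresh tumour was selected on oligo(dT) beads, made into libraries with no strand mark and sequenced on an Illumina HiSeq. The authors deposited read counts per gene for each library and a table of the series with the same values (0 genes differed). Per the submitters' processing notes, alignment used STAR 2.6.1 and genome build mm10. No source used here names the annotation release. Counts on either strand were used, so antisense and overlapping genes cannot be told apart. The 4 lines of reads assigned to no gene were left out: 2.53 to 3.2% of reads were unmapped, 3.94 to 4.7% mapped to several places, 5.33 to 9.3% fell outside genes and 5.1 to 6.53% were ambiguous. Symbols and positions for 55240 of the 56196 IDs came from GENCODE M21 (on GRCm38, the mm10 assembly) and from RefSeq names.

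Genes were kept by filterByExpr (minimum count 10), scaled by TMM factors and tested over the whole table with edgeR 4.0.16 under R 4.3.3. The robust quasi-likelihood fit held the 2 groups alone, and p-values were adjusted by Benjamini-Hochberg over all 15361 genes, with a threshold of 0.05. CPM was computed on the library total times its TMM factor. Fold changes are TKO over DKO. The test was checked on simulated data. DESeq2 1.42.0, limma-voom (limma 3.58.1), other scalings, filters, count columns, sex as a covariate, a replicate block and leaving out each library were alternatives. Reads carried no molecular identifiers, so floors and intervals cover counting error only.

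The 47 genes, the other lists and the tests were chosen with earlier results of these data known. Values per tumour were given for genes past the threshold or with separated groups, the 4 highest and 4 lowest fold changes, the 2 smallest p-values of each role group, and in the other lists the genes past the threshold and the 2 smallest p-values. Irf7, Isg15, Gbp3 and Oasl2 were added after their values were seen, as were the means of other genes. Some genes of the pathway lists are not reported here by name.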

Additional observations from a re-analysis of the deposited data

How the results depend on the processing

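All genes past the threshold numbered 1131 by edgeR, 158 when 1 CPM was required in at least 1 tumour of each group, and 2893 by DESeq2. They ranged from 0 to 2385 with 1 library left out: 2385 without TKO replicate 1, 475 without TKO replicate 2, 331 without TKO replicate 3, 39 without DKO replicate 1, 2 without DKO replicate 2 and 0 without DKO replicate 3, where edgeR left 3017 at an unadjusted p under 0.05. Of the 47 genes, the number higher in TKO tumours was 1 with no count filter (Tgtp1, with 4.09% of all genes called in either direction), 2 by DESeq2, and 1 each by limma-voom, with the first strand column and after adding sex to the model (Irf8 in each). The number lower was 2 with no count filter (Stat2 and Ifitm3), 3 by DESeq2, and 1 each by limma-voom and after adding sex (Ifitm2). Of all genes, these settings called 7.32% by limma-voom, 7.74% with sex and 7.19% with the first strand column. With 1 library left out, each of these numbers ranged from 0 to 2, and calls were made only without TKO replicate 1. The log2 fold change moved by over 1.5 times in fold when some library was left out for 18 of the 46 genes, Irf8, Mx1 and Oasl1 among them, and by less for the other 28, among them Stat2, Ifitm2 and Ifitm3. Of the 46 genes tested, 37 kept the sign of their fold change without TKO replicate 1. The cause of these shifts was not tested. With the replicate number as a block, edgeR called 295 genes (1.92%). At an unadjusted p under 0.05 that fit had 8 of the 46 genes tested, against 3338 of all 15361 genes. None of the 46 passed the threshold, and none of the 88 other pathway genes tested. Deviations of same-numbered tumours correlated at -0.01, 0.01 and -0.02, and not every tumour correlated best with its own number, so the numbers were not taken as pairs. Calls at an adjusted p between 0.0542 and 0.0672 (Ifitm2, Stat2, Irf8, Ifitm3) lay near the threshold and passed or missed it with the tool. Tgtp1 and the interferon genes had too few counts to test.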

Other observations

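Cgas, the sensor of cytosolic DNA, averaged 20.5 ± 6.94 CPM in TKO tumours and 23.2 ± 3.6 CPM in DKO tumours (SD, n = 3 each), with overlapping groups.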
